A study of Mus musculus with 9 samples.

Results

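Antioxidant and glutathione genes were followed in mouse cardiomyocytes across postnatal growth. The group was taken by symbol from the deposited count table: superoxide dismutases, glutathione peroxidases, peroxiredoxins, thioredoxins and their reductases, Txnip, glutaredoxins, glutathione transferases, catalase, heme oxygenases, Nqo1, the enzymes that make and reduce glutathione, sulfiredoxin, and the regulators Nfe2l1, Nfe2l2 and Keap1. It held 52 of the 15824 genes of the table, all 52 were tested, and no symbol stood on more than 1 row.

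The material was CD-1 (ICR) mouse heart with no genetic change in the labels, at postnatal day 1 (P1), day 14 (P14) and day 56 (P56), with 3 libraries of total RNA depleted of ribosomal RNA per age. Each library came from pooled hearts, 12 at P1 and 6 to 7 at the older ages, so the spread between libraries is a spread between pools. The labels call all libraries isolated cardiomyocytes. Their protocols describe both the isolation of intact myocytes (by Percoll gradient or perfusion) and the sorting of Pcm1-stained nuclei, and speak of surgery although no sample is labelled as operated. Which of these steps each library went through cannot be told from the labels.

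Cells that burn fatty acids in mitochondria, as the postnatal heart comes to do, form superoxide and hydrogen peroxide as by-products. Superoxide dismutases turn superoxide into hydrogen peroxide, which catalase, glutathione peroxidases and peroxiredoxins remove. The peroxidases and peroxiredoxins draw electrons from glutathione or thioredoxin and in the end from NADPH. Many of the genes are switched on by NRF2 (the product of Nfe2l2), which Keap1 marks for degradation until reactive molecules modify Keap1.

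Libraries held 36619799 to 58538025 counts, and the members together took 0.0955% to 0.114% of them. The 10 cardiomyocyte markers summed to 55000 to 97400 CPM, that is, counts scaled to a common library size with TMM factors, in every library. Markers of other cell types were far lower but changed with age. The summed level of 14 endothelial markers was 91.0 to 126 CPM at P1, 298 to 756 CPM on day 14 and 53.3 to 133 CPM at P56. That of 13 fibroblast markers was 162 to 325, 228 to 838 and 54.0 to 107 CPM at the same ages. For the 10 leukocyte markers in the table (Fcgr1, Cd14 and Itgam are not among its rows) the ranges were 5.00 to 7.37, 12.6 to 41.0 and 10.9 to 23.1 CPM. The 9 smooth muscle and pericyte markers summed to 244 to 272, 311 to 396 and 152 to 174 CPM, and 6 of 7 epicardial markers to 40.0 to 43.9, 18.9 to 37.5 and 6.26 to 13.9 CPM. The 4 of 10 erythroid markers in the table summed to 11.2 to 14.0, 6.10 to 16.1 and 7.13 to 10.5 CPM. No marker list of another cell type was at 0 in any library. A marker score, the mean log2 CPM of 53 such markers, was 1.25 to 1.82 at P1, 2.32 to 3.62 on day 14 and 0.64 to 1.68 at P56. The lists did not all follow that course in each measure. The epicardial sum was highest at P1, where Tbx18 alone stood at 34.5 ± 0.793 CPM. By gene, however, the epicardial markers had a median log2 change of 2.1 from P1 to P14. Leukocyte markers had a median log2 change of 2.18 from P1 to P14 but −0.48 from P14 to P56. Values after marker adjustment (this score added to the fit) are given beside called results of members whose call they end or whose size they move by over 1.5 times. Every P14 library scored above every P1 and P56 library, so the score and a step to or from P14 are hard to separate. The adjustment rests on differences among the 3 libraries within each age. A call kept or lost after it therefore does not tell where a transcript came from. In bulk RNA, fewer cells of a type and less RNA per cell cannot be told apart.

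**Figure D1:**
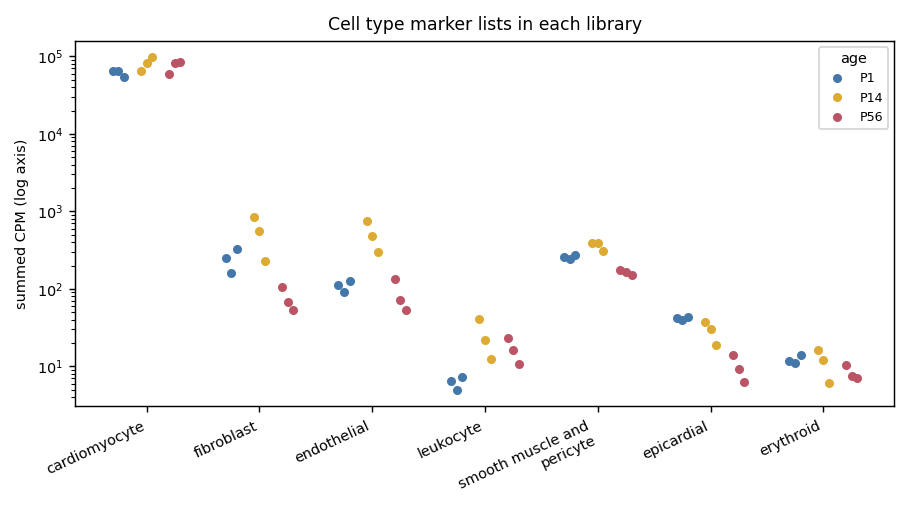
Summed CPM of each cell type marker list (log axis) in each of the 9 libraries, coloured by age. Cardiomyocyte markers lie between 55000 and 97400 CPM, while endothelial markers are highest at P14, from 298 to 756 CPM.

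Over the whole span from P1 to P56, more of these genes rose than fell. Of 52 members 28 rose and 7 fell at an adjusted p under 0.05 (edgeR's quasi-likelihood test, Benjamini-Hochberg adjustment over 15817 genes, 3 libraries per age), against 30.9% of all genes that rose and 31.7% that fell (62.6% in all). As shares, 53.8% of the members rose and 13.5% fell. The median log2 change of the members was 0.39, beside −0.03 over all genes tested. Changes of at least 1 on the log2 scale were upward in 14 members (26.9%, against 12.7% of all genes) and downward in 3 (5.77%, against 16.2%).

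The 2 steps within that span were alike in the number of members called, but not in the number of large rises. From P1 to P14 23 members rose and 6 fell, against 28.4% and 27.5% of all genes, with a median of 0.21 (all genes 0.00). From P14 to P56 24 rose and 6 fell, against 27.5% and 28.5% of all genes, with a median of 0.23 (all genes −0.02). Changes of at least 1 on the log2 scale upward numbered 5 members (9.62%) in the first step, beside 13.3% of all genes. In the second they numbered 9 (17.3%), beside 6.19%. Such falls numbered 1 (1.92%) and 2 (3.85%), beside 9.38% and 14.9%. The comparisons share libraries, so their counts are not independent. After marker adjustment 21 members rose and 7 fell in the first step, beside 24.8% and 25.2% of all genes in the same fit. In the second step 15 rose and 4 fell, beside 17.2% and 16.7%, so calls became fewer among the members and in the whole table. Over the whole span 29 rose and 6 fell, beside 32.7% and 33.6%. Of the 35 calls over the whole span, 31 were made in each of 14 alternative settings. The single steps were less stable, with 19 of 29 calls made in every setting from P1 to P14 and 16 of 30 from P14 to P56.

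**Figure D2:**
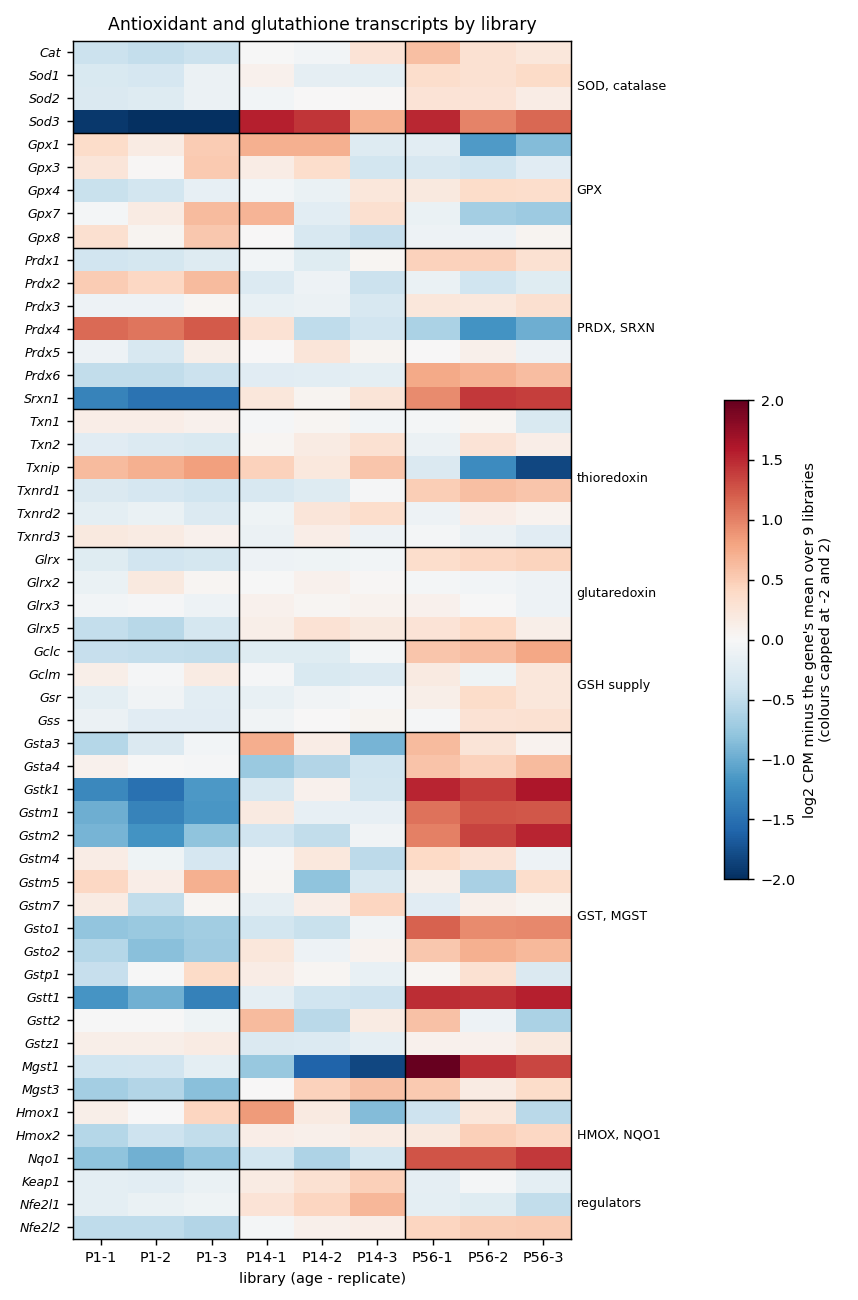
Log2 CPM of each of the 52 members (rows, grouped by role) in each of the 9 libraries (columns), minus the gene's mean over the libraries, with colours capped at −2 and 2. Most glutathione transferase rows with a strong pattern are highest at P56, while Prdx4 and Txnip are lowest there.

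**Figure D3:**
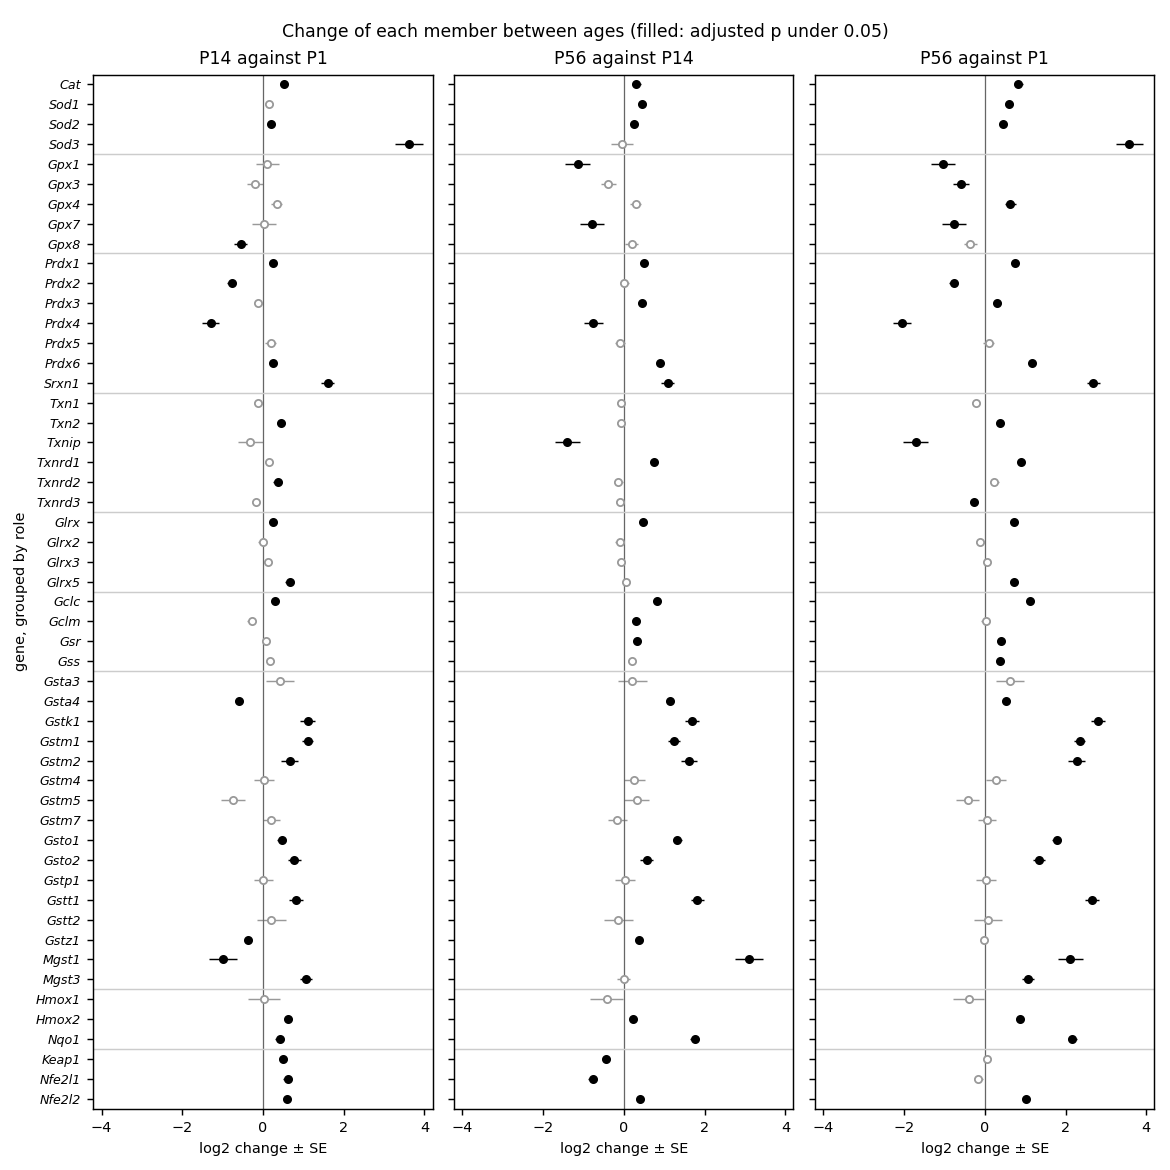
Log2 change ± SE of each member in the 3 comparisons, grouped by role, with filled points at an adjusted p under 0.05. Over the whole span (right) 28 filled points lie above 0 and 7 below.

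The regulators took different courses. Nfe2l2, the gene of NRF2 (ENSMUSG00000015839, chromosome 2 75675513 to 75704641 on the reverse strand, GRCm38), stood at 68.1, 68.1 and 64.8 CPM in the P1 libraries, at 95.0, 104 and 106 CPM on day 14 and at 131, 136 and 138 CPM at P56. No library of one age overlapped those of another. The log2 change was 0.60 ± 0.06 (SE) from P1 to P14 (adjusted p = 1.97e-05) and 0.41 ± 0.06 from P14 to P56 (adjusted p = 0.000223), and the latter was 0.23 after marker adjustment (adjusted p = 0.104). Over the whole span it rose by 1.01 ± 0.06 (adjusted p = 2.69e-07).

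Keap1, the adaptor that directs NRF2 to its ubiquitin ligase (ENSMUSG00000003308, chromosome 9), was highest at P14. It stood at 10.8, 10.6 and 11.3 CPM at P1, at 13.8, 15.2 and 17.1 CPM on day 14 and at 10.9, 12.0 and 10.8 CPM at P56. It rose by 0.50 ± 0.10 (adjusted p = 0.00164) and then fell by 0.45 ± 0.10 (adjusted p = 0.00304), and its P56 and P1 libraries overlapped. Nfe2l1 encodes NRF1, a relative of NRF2 held in the endoplasmic reticulum that controls proteasome genes (ENSMUSG00000038615, chromosome 11). Its values were 39.8, 41.6 and 42.9 CPM at P1, 55.4, 61.7 and 72.4 CPM on day 14 and 40.0, 38.5 and 32.5 CPM at P56. It also rose and fell back, by 0.61 ± 0.11 (adjusted p = 0.000932) and −0.77 ± 0.11 (adjusted p = 0.00025). Both genes move with the endothelial markers, which were also highest at P14. After marker adjustment their changes were called and as large, at 0.66 and −0.66 for Keap1 and 0.70 and −0.90 for Nfe2l1. Of the Keap1 exon length 10.9% overlaps Gm16754 on the other strand. Among the P14 libraries, Nfe2l1 and Keap1 were highest in replicate 3, the library with the lowest marker score. At P56, in contrast, Nfe2l1 had the order of the marker score (1.68, 1.04 and 0.64), and Keap1 was highest in replicate 2. A part of other cell types in these changes was not tested.

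NRF2 binds antioxidant response elements, whose core was searched on both strands as TGACNNNGC or TGAGNNNGC in the 250 bases before the RefSeq gene starts (GRCm38.p6). Of the 52 members 45 had an entry. Entries were not found for Gclc, Gsr, Gsta4, Gstt2, Hmox1, Prdx6 and Sod3. The core was found in 16 of 45 members (35.6%) and in 25.7% of 27025 genes, or in 30.3% of the members' 66 windows and 23.0% of all 32851 windows. Of the members with the core, Gstt1, Mgst1, Nfe2l2, Prdx1, Sod1, Srxn1, Txn2 and Txnrd1 rose over the whole span and Txnrd3 fell. Gclm, Gsta3, Gstm5, Gstm7, Gstp1, Gstz1 and Nfe2l1 also held it and were not called. Nqo1, which rose, had an entry without the core. The following windows, all of genes that rose, hold the core in the regulator itself and in sulfiredoxin and one of its peroxiredoxin substrates. The core is in capitals.
Nfe2l2, chr2:75704664-75704913, reverse strand: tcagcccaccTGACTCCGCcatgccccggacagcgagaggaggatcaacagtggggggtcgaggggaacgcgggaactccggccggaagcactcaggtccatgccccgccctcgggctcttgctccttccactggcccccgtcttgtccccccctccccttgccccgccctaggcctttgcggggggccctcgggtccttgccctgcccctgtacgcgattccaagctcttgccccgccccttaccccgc
Srxn1, chr2:152105274-152105523, forward strand: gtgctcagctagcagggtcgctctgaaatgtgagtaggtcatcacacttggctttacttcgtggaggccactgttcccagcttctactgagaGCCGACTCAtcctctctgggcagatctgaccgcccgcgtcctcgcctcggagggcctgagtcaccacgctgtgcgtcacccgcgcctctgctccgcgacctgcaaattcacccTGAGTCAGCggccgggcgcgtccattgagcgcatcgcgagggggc
Prdx1, chr4:116685349-116685598, forward strand: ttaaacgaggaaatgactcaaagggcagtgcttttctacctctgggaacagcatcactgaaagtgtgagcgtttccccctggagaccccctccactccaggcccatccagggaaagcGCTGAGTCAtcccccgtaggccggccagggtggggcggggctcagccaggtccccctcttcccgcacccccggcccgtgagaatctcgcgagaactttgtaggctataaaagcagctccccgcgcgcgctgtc
In Srxn1 the core lay from −158 to −150 and from −45 to −37 relative to the start, and in Prdx1 from −133 to −125. In Nfe2l2 it lay from −240 to −232. The Srxn1 match nearer the start and the Prdx1 match each overlap a match to the AP-1 site TGAGTCA, a motif found in 5 of 45 members (11.1%) and in 5.16% of all genes. These are matches of letters, and no binding was measured.

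Glutathione is made in a pair of steps, and its rate-limiting enzyme rose on one subunit. Gclc, the catalytic subunit of glutamate-cysteine ligase (ENSMUSG00000032350, chromosome 9 77754535 to 77794485), stood at 17.3, 17.1 and 16.8 CPM at P1, at 20.1, 20.0 and 23.1 CPM on day 14 and at 35.0, 36.4 and 40.4 CPM at P56. The 3 ages did not overlap. It rose by 0.30 ± 0.08 (adjusted p = 0.0117; 0.53 after marker adjustment) and by 0.82 ± 0.08 (adjusted p = 4.01e-05; 0.52 after marker adjustment), in all by 1.13 ± 0.08 (adjusted p = 1.67e-06). Gclm, the modifier subunit of the same enzyme, stood at 13.2, 12.0 and 13.6 CPM at P1, at 12.0, 9.87 and 10.1 CPM on day 14 and at 13.7, 11.5 and 14.2 CPM at P56. Its P56 and P1 libraries overlapped, with a difference of 0.02 ± 0.11 (adjusted p = 0.866). Its rise from P14 to P56 of 0.30 ± 0.11 (adjusted p = 0.0419) was called in 6 of 14 alternative settings, and was not called after marker adjustment (0.54) or without P1 replicate 1, 2 or 3, P14 replicate 2 or 3, or P56 replicate 1 or 3 (0.24 to 0.30). The difference before it, −0.28 ± 0.11, missed the threshold (adjusted p = 0.0557). It passed in 4 of 14 settings: after marker adjustment (−0.46, adjusted p = 0.0462), with a replicate block (adjusted p = 0.0325), and without P14 replicate 1 (−0.38, adjusted p = 0.0149) or P56 replicate 2 (adjusted p = 0.0425).

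Gss, glutathione synthetase, stood at 10.4, 9.65 and 9.60 CPM at P1, 10.7, 11.3 and 11.7 CPM on day 14 and 11.1, 13.7 and 13.9 CPM at P56, and rose over the whole span by 0.38 ± 0.10 (adjusted p = 0.00817). Of its exon length, 18.6% overlaps exons of genes on the other strand, among them Acss2, and no source used here says whether counting used strand. Gsr, the reductase that returns oxidised glutathione to its reduced form, stood at 27.5, 29.9 and 27.1 CPM at P1, 28.3, 29.9 and 30.7 CPM on day 14 and 33.9, 40.4 and 36.7 CPM at P56. Its P56 libraries were above all others. The rise from P14 was 0.32 ± 0.08 (adjusted p = 0.00689), but 0.08 after marker adjustment (adjusted p = 0.688), whereas over the whole span it was 0.39 ± 0.08 (adjusted p = 0.00162).

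Nqo1, a quinone reductase and a standard NRF2 target (ENSMUSG00000003849, chromosome 8 107388225 to 107403206), rose mainly after P14. Its values were 3.59, 3.22 and 3.64 CPM at P1, 4.86, 4.11 and 4.91 CPM on day 14 and 15.1, 15.0 and 16.7 CPM at P56. Each age lay above the one before without overlap. The log2 change was 0.41 ± 0.11 in the first step (adjusted p = 0.00984; 0.46 with adjusted p = 0.052 after marker adjustment) and 1.75 ± 0.11 in the second (adjusted p = 2.29e-06), in all 2.16 ± 0.11, or 4.48-fold. Hmox1, the stress-inducible heme oxygenase and another NRF2 target, was low, at 0.519 ± 0.0827 CPM (SD, n = 3) at P1, 0.527 ± 0.285 on day 14 and 0.393 ± 0.118 at P56. Its difference from P1 to P56 was −0.40 ± 0.39 (adjusted p = 0.397; −0.06 after marker adjustment). Hmox2, the constitutive form, rose by 0.63 ± 0.08 in the first step (adjusted p = 0.000113) and by 0.86 ± 0.08 in all. Its second step of 0.23 ± 0.08 (adjusted p = 0.0289) was 0.02 after marker adjustment (adjusted p = 0.941), and without P14 replicate 2, P56 replicate 2 or P56 replicate 3 it was 0.21, 0.17 and 0.21 (adjusted p = 0.0872, 0.113 and 0.0892). Exons of Cdip1 on the other strand overlap 40.2% of the Hmox2 exon length. Cdip1 stood at 170 ± 3.55 CPM at P1 and at 86.7 ± 5.77 CPM at P56, and its part in the Hmox2 counts was not tested.

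**Figure D4:**
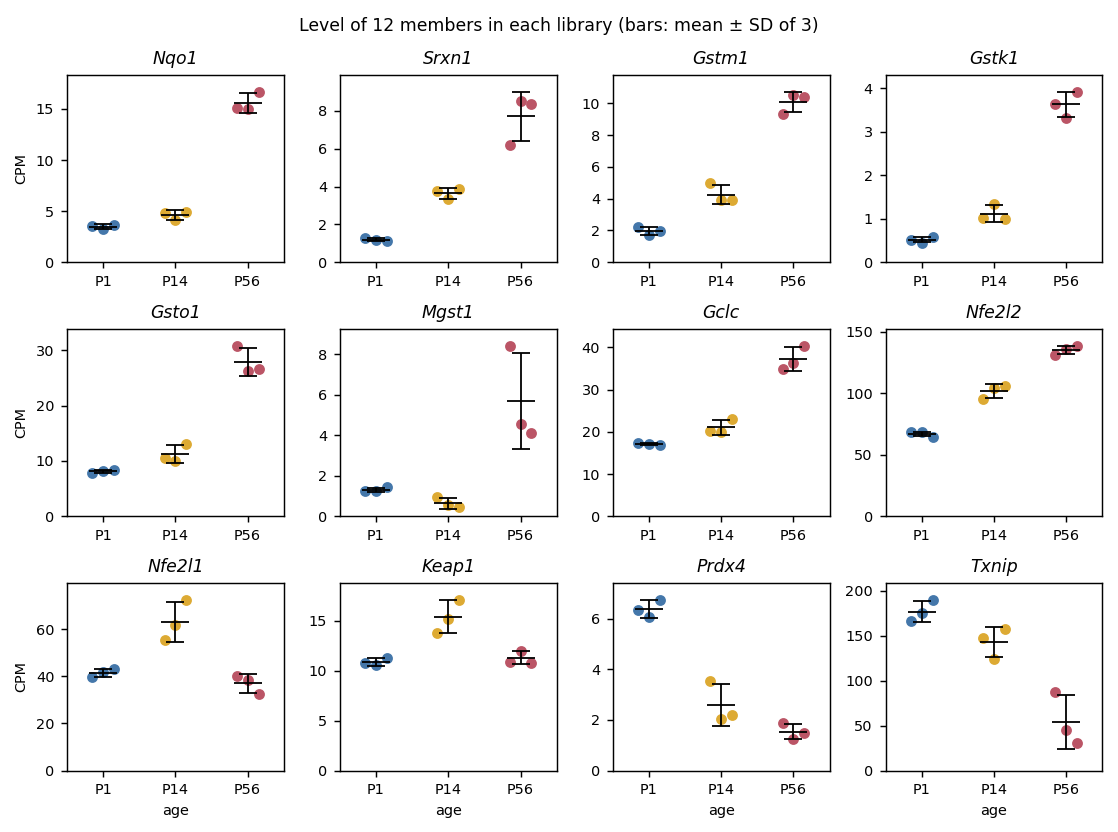
CPM of 12 members in each library (points) with the mean ± SD of 3 libraries (bars) at P1, P14 and P56, each panel starting at 0. Nqo1, Srxn1 and the transferases step up to P56, Keap1 and Nfe2l1 are highest at P14, and Prdx4 and Txnip are lowest at P56.

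The glutathione transferases, which couple glutathione to reactive compounds, held most of the large rises. Of 16 members of this role 9 (56.2%) rose over the whole span and 0 fell by edgeR's test, with a median of 0.85, beside 30.9% and 31.7% of all genes. In the first step 7 (43.8%) rose and 3 (18.8%) fell, beside 28.4% and 27.5%. In the second 9 rose and 0 fell, beside 27.5% and 28.5%. Of the 9 rises over the whole span, 8 were of at least 1 on the log2 scale, a size that 12.7% of all genes reached upward.

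Gstk1, the kappa form found in mitochondria and peroxisomes (ENSMUSG00000029864, chromosome 6 42245935 to 42250447), rose most. It stood at 0.522, 0.455 and 0.576 CPM at P1, at 1.02, 1.35 and 0.993 CPM on day 14 and at 3.65, 3.33 and 3.92 CPM at P56. Every age lay above the last, with changes of 1.11 ± 0.19 (adjusted p = 0.000891) and 1.69 ± 0.17 (adjusted p = 4.56e-05), in all 2.80 ± 0.18. Gstt1, a theta form (chromosome 10), followed the same order, at 0.490, 0.569 and 0.432 CPM, then 0.971, 0.838 and 0.828 CPM, then 3.08, 3.05 and 3.23 CPM. It rose by 0.82 ± 0.18 and 1.82 ± 0.16 (adjusted p = 0.00333 and 2.01e-05). The other theta form, Gstt2, stood at 0.577 ± 0.0161 CPM at P1 and 0.604 ± 0.256 at P56, a difference of 0.07 ± 0.35 (adjusted p = 0.882).

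Within the mu cluster on chromosome 3 the members parted. Gstm1 stood at 2.23, 1.74 and 1.95 CPM at P1, at 4.98, 3.89 and 3.92 CPM on day 14 and at 9.33, 10.5 and 10.4 CPM at P56, and rose by 2.35 ± 0.14 over the whole span (adjusted p = 4.35e-07). Gstm2 stood at 0.680, 0.569 and 0.739 CPM, then 0.997, 0.919 and 1.24 CPM, then 2.60, 3.31 and 3.72 CPM, a rise of 2.27 ± 0.20 (adjusted p = 5.98e-06). In neither gene did the ages overlap. The first step of Gstm2, 0.66 ± 0.21 (adjusted p = 0.0238), was 1.09 after marker adjustment and its second, 1.61 ± 0.20, was 1.02. Without P1 replicate 1 or 2 or P14 replicate 3 that first step was not called (0.68, 0.57 and 0.53, adjusted p = 0.0558, 0.081 and 0.088). The neighbours Gstm4, Gstm5 and Gstm7 differed between P1 and P56 by 0.28 ± 0.24, −0.43 ± 0.29 and 0.05 ± 0.22 (adjusted p = 0.325, 0.222 and 0.864). Of the 50-base stretches in Gstm1 transcripts 18.9% occur in transcripts of another gene, against 5.65% in Gstm2, 9.44% in Gstm5 and 0.00% in Gstm4. Some reads of Gstm1 may therefore not be placed, depending on their length.

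The omega forms, which reduce dehydroascorbate and release glutathione from proteins, lie side by side on chromosome 19 and both rose. Gsto1 (47854970 to 47864790) stood at 7.86, 8.15 and 8.43 CPM at P1, at 10.5, 9.98 and 13.0 CPM on day 14 and at 30.8, 26.3 and 26.6 CPM at P56. It rose by 0.46 ± 0.11 and 1.32 ± 0.11 (adjusted p = 0.0069 and 1.56e-05), or 3.43-fold in all. Gsto2 (47865534 to 47886324) stood at 1.08, 0.891 and 0.973 CPM, then 1.87, 1.49 and 1.68 CPM, then 2.33, 2.62 and 2.50 CPM. Its steps were 0.77 ± 0.16 (adjusted p = 0.00249) and 0.56 ± 0.15 (adjusted p = 0.0111), and the second was not called after marker adjustment (0.63, adjusted p = 0.168). The ages did not overlap in either gene.

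A few transferases dipped at P14. Gsta4, which removes the lipid peroxidation product hydroxynonenal (chromosome 9), stood at 10.2, 9.55 and 9.40 CPM at P1, at 5.75, 6.38 and 7.23 CPM on day 14 and at 14.2, 13.2 and 14.9 CPM at P56. It fell by 0.59 ± 0.10 (adjusted p = 0.000969; −0.39 with adjusted p = 0.057 after marker adjustment) and then rose by 1.13 ± 0.10 (adjusted p = 2.44e-05). Mgst1, a microsomal form (chromosome 6), stood at 1.25, 1.27 and 1.44 CPM, then 0.971, 0.541 and 0.469 CPM, then 8.43, 4.55 and 4.14 CPM. At P56 replicate 1 lay far above the other 2, yet every P56 library was above every other library. Mgst1 rose by 3.10 ± 0.34 after P14 (adjusted p = 6.77e-05; 4.80 after marker adjustment), after a fall of 0.99 ± 0.35 (adjusted p = 0.0367; −2.35 after marker adjustment). That fall was not called without each of P1 replicates 1, 2 and 3 and P14 replicates 2 and 3 in turn (adjusted p = 0.0655, 0.0672, 0.0916, 0.117 and 0.116). Gstz1, which isomerises maleylacetoacetate in tyrosine breakdown, fell by 0.38 ± 0.06 and rose by 0.37 ± 0.06 (adjusted p = 0.000761 and 0.000891), and the rise was 0.24 after marker adjustment (adjusted p = 0.176). Of its exon length 12.2% overlaps genes on the other strand. Between ages these dips run opposite to the endothelial markers. Within an age this did not hold for Mgst1. Its libraries had the order of the marker score at P14 (3.62, 3.07 and 2.32) and at P56 (1.68, 1.04 and 0.64). Gsta4 and Gstz1 had the reverse order at P14. The cause was not tested.

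Mgst3, the other microsomal form in the table, reached its level by P14. It stood at 30.7, 32.8 and 27.5 CPM at P1, at 49.6, 67.5 and 74.4 CPM on day 14 and at 70.7, 55.2 and 63.9 CPM at P56. It rose by 1.07 ± 0.15 (adjusted p = 0.000216), with a difference of −0.01 ± 0.15 between P56 and P14 (adjusted p = 0.947). Gsta3 and Gstp1 (the pi form, with 33.7% of its 50-base stretches shared with other genes) differed between P1 and P56 by 0.63 ± 0.35 and 0.03 ± 0.24 (adjusted p = 0.137 and 0.932). Gsta3 was past the threshold over the whole span after marker adjustment (0.99, adjusted p = 0.00157) and without P14 replicate 3 (0.64, adjusted p = 0.035), and its second step was 1.88 after marker adjustment (adjusted p = 0.00817).

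Sulfiredoxin and several peroxiredoxins rose, while other peroxiredoxins fell. Srxn1, which repairs over-oxidised peroxiredoxins (ENSMUSG00000032802, chromosome 2 152105516 to 152111376), stood at 1.28, 1.16 and 1.15 CPM at P1, at 3.76, 3.33 and 3.86 CPM on day 14 and at 6.21, 8.54 and 8.38 CPM at P56. The ages did not overlap. It rose by 1.60 ± 0.16 (adjusted p = 2.53e-05) and by 1.08 ± 0.15 (adjusted p = 0.000219), in all 6.42-fold. The second step was 0.69 after marker adjustment (adjusted p = 0.0746). Prdx6, the peroxiredoxin with a single reactive cysteine and a phospholipase activity, stood at 27.1, 27.1 and 28.2 CPM, then 32.5, 33.1 and 33.2 CPM, then 64.3, 61.6 and 58.7 CPM. Most of its rise came after P14 (0.90 ± 0.06, adjusted p = 2.7e-06), after 0.26 ± 0.06 before it (adjusted p = 0.00304; 0.20 with adjusted p = 0.105 after marker adjustment).

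Prdx4, the peroxiredoxin of the endoplasmic reticulum (ENSMUSG00000025289, X chromosome 155323918 to 155340754), went the other way. Its values were 6.34, 6.05 and 6.74 CPM at P1, 3.53, 2.03 and 2.21 CPM on day 14 and 1.86, 1.26 and 1.47 CPM at P56, each age below the last without overlap. It fell by 1.30 ± 0.21 (adjusted p = 0.000635) and 0.76 ± 0.23 (adjusted p = 0.0168), in all by 2.06 ± 0.22 (adjusted p = 2.21e-05). After marker adjustment the first step was −1.95 and the second 0.08 (adjusted p = 0.889), and the second was not called without P56 replicate 2 or 3 (−0.64 and −0.73, adjusted p = 0.0623 and 0.0509). Over the whole span the fall was −1.87 after marker adjustment and was called in all 14 settings.

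Of the remaining peroxiredoxins, Prdx1 (cytosolic) rose by 0.74 ± 0.08 and Prdx3 (mitochondrial) by 0.31 ± 0.08 over the whole span (adjusted p = 3.57e-05 and 0.00929). Prdx2, the form abundant in red cells, fell by 0.77 ± 0.11 over the whole span (adjusted p = 0.000163) and by 0.78 ± 0.11 in its first step. Over the whole span the erythroid markers Hba-a1, Hbb-bs, Hbb-bt and Alas2 had a median change of −0.54, with 1 of 4 called lower. By step they took another course than Prdx2. Their median was −0.06 in the first step, with 1 called higher and 0 lower, and −0.59 in the second, with 0 called. The second step of Prdx2 was 0.01 ± 0.11. The part of red cells in the Prdx2 value was not tested. Prdx5 differed by 0.09 ± 0.13 (adjusted p = 0.563). Parts of the exon lengths of Prdx2 (11.5%) and Prdx5 (19.1%) overlap genes of the other strand.

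In the thioredoxin system the inhibitor fell and the cytosolic reductase rose. Txnip binds thioredoxin and restrains glucose uptake (ENSMUSG00000038393, chromosome 3 96557957 to 96561883). It stood at 167, 175 and 190 CPM at P1, at 147, 124 and 157 CPM on day 14 and at 87.7, 44.9 and 30.3 CPM at P56. The ages did not overlap, but the P56 libraries spread widely. The difference from P1 to P14 was −0.31 ± 0.30 (adjusted p = 0.401; −0.94 with adjusted p = 0.0549 after marker adjustment), and Txnip then fell to 0.380 of its P14 level (adjusted p = 0.0035) and by 1.71 ± 0.31 in all (adjusted p = 0.000814). At P56 the libraries had the same order in the marker score (1.68, 1.04 and 0.64). After marker adjustment the log2 change of the second step was −0.63 (adjusted p = 0.28), while the change over the whole span was −1.57 (adjusted p = 8.79e-05). How the fall divides between the steps thus depends on that adjustment. Exons of Gm15441 on the other strand overlap 19.4% of the Txnip exon length, and that gene stood at 0.660 ± 0.240 CPM at P1 and 0.0906 ± 0.0232 CPM at P56.

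Txnip is a known target of the glucose-sensing factors MondoA and ChREBP, which bind a pair of E-boxes. The window before its start is shown because it holds such a pair (CACGNG, then NNNNN, then CACGNG), in capitals, from −85 to −69. The pair was found on either strand in 0.0518% of 27025 genes, and in 1 of 45 members.
Txnip, chr3:96557707-96557956, forward strand: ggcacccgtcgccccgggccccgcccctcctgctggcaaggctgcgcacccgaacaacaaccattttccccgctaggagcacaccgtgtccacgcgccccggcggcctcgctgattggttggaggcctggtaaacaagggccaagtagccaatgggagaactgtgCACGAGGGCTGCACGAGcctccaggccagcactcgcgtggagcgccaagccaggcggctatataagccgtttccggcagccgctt
No binding of a factor was measured in these samples.

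Txnrd1, the cytosolic thioredoxin reductase, stood at 35.0 ± 1.18 CPM at P1, 38.7 ± 4.20 on day 14 and 64.7 ± 2.53 at P56. It rose by 0.74 ± 0.08 after P14 (adjusted p = 5.45e-05; 0.46 after marker adjustment) and by 0.89 ± 0.08 in all (adjusted p = 6.11e-06). Mitochondrial Txn2 and its reductase Txnrd2 rose in the first step by 0.44 ± 0.10 and 0.37 ± 0.11 (adjusted p = 0.0055 and 0.017), each 0.74 after marker adjustment. The Txnrd2 call was lost without P1 replicate 3 or P14 replicate 2 or 3 (0.34, 0.34 and 0.28, adjusted p = 0.062, 0.0588 and 0.0569). Cytosolic Txn1 differed by −0.21 ± 0.10 between P1 and P56 (adjusted p = 0.103). Txnrd3, the reductase known from testis, fell by 0.27 ± 0.09 over the whole span (adjusted p = 0.0249), a call lost without P1 replicate 1 or 2 or P56 replicate 2 or 3 (−0.23 to −0.28).

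Of 5 glutathione peroxidases 1 rose and 3 fell over the whole span (median −0.59), beside 30.9% and 31.7% of all genes. Each of these 3 falls was lost in at least 1 of 14 settings. Gpx1, the main cytosolic and mitochondrial form, stood at 2.20, 1.91 and 2.43 CPM at P1, at 2.81, 2.81 and 1.43 CPM on day 14 and at 1.47, 0.781 and 0.936 CPM at P56. The P14 library with the lowest marker score overlapped the P56 range. Gpx1 fell by 1.15 ± 0.31 after P14 (adjusted p = 0.00972) and by 1.04 ± 0.30 in all (adjusted p = 0.0128; −0.86 with adjusted p = 0.0523 without P56 replicate 2). The steps of Gpx1 depended on marker adjustment, for a cause that was not tested. After it the first step turned from 0.11 to −0.97 (adjusted p = 0.0246) and the second from −1.15 to 0.22 (adjusted p = 0.703). The whole span stood at −0.74 (adjusted p = 0.00521).

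The secreted Gpx3 fell by 0.59 ± 0.19 over the whole span (adjusted p = 0.0202), and that call was lost without P1 replicate 3, P56 replicate 1 or P56 replicate 2 (−0.45, −0.58 and −0.55, adjusted p = 0.0862, 0.0504 and 0.0652). Gpx7, of the endoplasmic reticulum, fell by 0.76 ± 0.30 (adjusted p = 0.0453, called in 7 of 14 settings). That call was lost under DESeq2, after marker adjustment, and without P1 replicate 2 or 3, P14 replicate 3, or P56 replicate 2 or 3 (−0.55 to −0.82). Gpx8, of the same compartment, fell by 0.55 ± 0.16 in the first step (adjusted p = 0.0159; −0.90 after marker adjustment). That call was lost without P1 replicate 3 or P14 replicate 2 or 3 (adjusted p = 0.0683, 0.056 and 0.0503). Gpx4, which reduces lipid hydroperoxides in membranes, rose by 0.63 ± 0.13 over the whole span (adjusted p = 0.00207), from 3.86 ± 0.384 CPM at P1 to 5.97 ± 0.382 CPM at P56. Of its 50-base stretches 34.7% also occur in other transcripts, among them the pseudogene Gpx4-ps2.

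All 4 superoxide dismutase and catalase genes rose from P1 to P56, beside 30.9% of all genes. Sod3, the extracellular dismutase (ENSMUSG00000072941, chromosome 5), stood at 0.142, 0.0758 and 0.0901 CPM at P1, from 18 counts in all. It stood at 1.58, 1.46 and 0.883 CPM on day 14 and at 1.54, 1.08 and 1.20 CPM at P56. It rose by 3.62 ± 0.35 by P14 (adjusted p = 2.17e-05; 2.82 after marker adjustment), with a difference of −0.04 ± 0.27 thereafter (adjusted p = 0.906; 0.99 with adjusted p = 0.111 after marker adjustment). Its order among the P14 libraries was that of the marker score (3.62, 3.07 and 2.32). Cat, peroxisomal catalase, rose from 44.7 ± 0.704 CPM at P1 to 64.2 ± 8.35 on day 14 and stood at 79.4 ± 11.5 CPM at P56, a rise of 0.83 ± 0.11 in all (adjusted p = 0.000121). Its second step of 0.31 ± 0.11 (adjusted p = 0.0401) was called in 6 of 14 settings. It was not called after marker adjustment (0.33) or without P1 replicate 1, 2 or 3, P14 replicate 1 or 2, or P56 replicate 1 or 2, and without P56 replicate 1 it was 0.18. Sod1 (cytosolic) rose by 0.60 ± 0.10 and Sod2 (mitochondrial) by 0.45 ± 0.07 over the whole span (adjusted p = 0.000512 and 0.000197). Sod1 rose after P14 (0.44 ± 0.10, adjusted p = 0.00484; 0.70 after marker adjustment), and 21.0% of the Sod2 stretches of 50 bases are shared with other transcripts.

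Of 4 glutaredoxins, which undo mixed disulfides of protein and glutathione, 2 rose over the whole span, beside 30.9% of all genes. Cytosolic Glrx rose by 0.73 ± 0.07 and Glrx5, needed for iron-sulfur clusters in mitochondria, by 0.72 ± 0.10 (adjusted p = 1.59e-05 and 0.000193). Glrx5 had risen by P14 (0.66 ± 0.11, adjusted p = 0.000523). Glrx2 and Glrx3 differed by −0.11 ± 0.11 and 0.05 ± 0.06 (adjusted p = 0.393 and 0.482). Per kilobase of annotated exon, Mgst3 had the highest mean level of the members at P56 (57.7 CPM per kb), followed by Nfe2l2 (35.6), Hmox2 (32.7) and Cat (30.4). At P1 Txnip stood at 56.7 CPM per kb on the same scale, and at P56 at 17.4. Whether reads in introns were counted was not stated in the available labels, and this scale assumes that they were not.

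A separate list of 16 genes covered the supply of NADPH to these reductases and steps linked to it. Not every enzyme in it forms NADPH itself. Of these 9 (56.2%) rose and 3 (18.8%) fell over the whole span (median 0.42), beside 30.9% and 31.7% of all genes. Me3, mitochondrial malic enzyme, rose from 75.2 ± 3.34 to 278 ± 25.1 CPM (1.89 ± 0.08, adjusted p = 4.98e-08) and Idh1, the cytosolic isocitrate dehydrogenase, by 1.01 ± 0.07 (adjusted p = 8.04e-07). Nnt, the transhydrogenase of the inner mitochondrial membrane, fell by 0.32 ± 0.06 from P1 to P14 and rose by 1.09 ± 0.06 from P14 to P56 (adjusted p = 0.00132 and 1.18e-06). Mthfd1l, of mitochondrial folate metabolism, fell by 3.32 ± 0.32 over the whole span (adjusted p = 1.11e-05), from 16.2 ± 0.681 to 1.62 ± 0.629 CPM. In the first step 4 of the 16 rose and 5 fell, shares near the 28.4% and 27.5% of all genes. In the second 10 (62.5%) rose and 2 (12.5%) fell, beside 27.5% and 28.5%.

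Genes of cysteine supply and glutathione turnover held several large changes. Of 15 in the table (18 listed) 8 (53.3%) rose and 3 fell over the whole span (median 0.36), beside 30.9% and 31.7% of all genes. In the first step 8 rose and 2 fell, beside 28.4% and 27.5%. In the second 5 (33.3%) rose and 4 (26.7%) fell, shares near the 27.5% and 28.5% of all genes. Cth, cystathionine γ-lyase, which makes cysteine, stood at 0.364, 0.663 and 0.684 CPM at P1, at 1.51, 1.70 and 3.23 CPM on day 14 and at 28.4, 28.2 and 24.2 CPM at P56. The ages did not overlap, and the rise was 5.57 ± 0.31 in all (adjusted p = 2.68e-07). Abcc1, which exports glutathione conjugates, rose from 22.1 ± 1.73 to 309 ± 61.0 CPM by P14 (3.80 ± 0.14, adjusted p = 9.02e-08) and stood at 276 ± 9.97 CPM at P56. Ggct, of glutathione turnover, and Chac2, which breaks glutathione down, rose after P14 by 1.37 ± 0.12 and 0.91 ± 0.12 (adjusted p = 2e-05 and 0.000179). Chac1, another glutathione-degrading enzyme, stood at 0.0341 ± 0.0143 CPM at P1 (6 counts in all), 1.47 ± 0.620 on day 14 and 0.717 ± 0.204 at P56. Slc1a1, a carrier of glutamate and cysteine, fell by 1.68 ± 0.12 by P14 (adjusted p = 3.09e-06).

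Among 17 partners and further targets of NRF2, 10 (58.8%) rose and 3 (17.6%) fell over the whole span (median 0.40), beside 30.9% and 31.7% of all genes. In the first step 9 (52.9%) rose and 3 fell, beside 28.4% and 27.5%, and in the second 6 (35.3%) rose and 2 (11.8%) fell, beside 27.5% and 28.5%. Osgin1, an oxidative stress-induced growth inhibitor, stood at 0.137 ± 0.0536 CPM at P1 (24 counts in all), 0.483 ± 0.114 on day 14 and 2.06 ± 0.185 at P56 (3.86 ± 0.29 in all, adjusted p = 1.82e-06). Pir (pirin) rose by 2.48 ± 0.23 and the exporter gene Abcc4 by 2.14 ± 0.09 (adjusted p = 7.28e-06 and 5.43e-08). Mafg, one of the small MAF proteins that pair with NRF2, rose by 1.43 ± 0.19 by P14 (adjusted p = 0.000151). Blvrb, which reduces biliverdin, and the iron exporter gene Slc40a1 fell by 1.11 ± 0.15 and 1.37 ± 0.30 over the whole span (adjusted p = 0.000131 and 0.00268).

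Of 14 methionine sulfoxide reductases, sestrins and aldehyde-clearing enzymes, 7 rose and 3 (21.4%) fell over the whole span (median 0.28), beside 30.9% and 31.7% of all genes. In the first step 8 (57.1%) rose and 2 (14.3%) fell, beside 28.4% and 27.5%. In the second 4 (28.6%) rose and 1 (7.14%) fell, beside 27.5% and 28.5%. Aldh2, mitochondrial aldehyde dehydrogenase, rose from 4.07 ± 0.321 to 17.8 ± 1.95 CPM (2.13 ± 0.12, adjusted p = 2.48e-07). Sesn1, a sestrin, rose by 1.16 ± 0.08 while Sesn3 fell by 0.89 ± 0.13 (adjusted p = 1.27e-06 and 0.000202).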

How the data were processed

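The authors deposited a single file of raw whole-number counts per gene for 9 libraries of mouse cardiomyocytes. The tools listed in the submitters' processing notes were featureCounts 1.4.2, STAR 2.4.0g1 and bcl2fastq 2.17.1.14, and the build was GRCm38. Counting mode and strand are not given in the sources used here. The smallest mean count of a gene was 10. P1 libraries held 49190887 to 58538025 counts, P14 libraries 36619799 to 38878181 and P56 libraries 45866453 to 49535917.

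Counts were fitted with edgeR 4.0.16 in R 4.3.3 after filterByExpr (7 genes removed, 15817 tested) and TMM scaling, in 1 quasi-likelihood fit of all 9 libraries on age alone (dispersion 0.0192, or a biological coefficient of variation of 13.9%). SEs are the size of the log2 change divided by the square root of the F statistic. Libraries of an age differed beyond counting error (chi-square per degree of freedom 5.48 to 101). The script was tested on simulated data.

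Members, lists and markers were chosen with earlier results of these data known. All library values are given for members with a log2 change of at least 1 at an adjusted p under 0.05 and at least 1 CPM, and for the regulators and the 4 glutathione synthesis and reduction genes. From other lists, up to 3 genes per direction and comparison were named. Genes with values in the captions were picked from these, and Cdip1, Gm15441 and the printed promoters after their values were seen.

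Alternatives were median-of-ratios scaling, DESeq2 1.42.0, no filter, a replicate block, the marker score in the fit, and each library left out. Coordinates, exon overlaps and shared stretches of 50 bases came from GENCODE M21, promoters from RefSeq. Some genes of the other lists are counted in their list but not reported here by name.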

Additional observations from a re-analysis of the deposited data

How the results depend on the processing

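Counts of members called kept within 1.5 times of those reported under median-of-ratios scaling, DESeq2, no filter and the replicate block. After marker adjustment the step from P14 to P56 gave 15 members higher in place of 24, and 2728 genes higher and 2635 lower in the whole table in place of 4356 and 4504. Leaving out 1 library at a time moved the members called lower over the whole span between 3 and 8, the lowest without P56 replicate 2. The marker score also turned the direction of single genes. In the step from P1 to P14, Gpx1 went to −0.97, Ggt5 to −0.26 and Eefsec to 0.06. In the step from P14 to P56, Gpx1 went to 0.22, Gpx7 to 0.00, Prdx4 to 0.08, Ggt5 to 0.97, Maff to 0.12, Msra to −0.15, Mthfd1l to 0.37 and Nox4 to 0.91. The cause was not tested.

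The labels do not say that equal replicate numbers share a batch. Deviations of same-numbered libraries correlated at −0.22 to 0.49, so not every pair was above 0.1, and the numbers were not taken to pair the libraries. As a hint from the data, 5 of 9 libraries correlated best with a library of their own number, and between P14 and P56 same-numbered libraries correlated at 0.49, 0.01 and 0.36, against −0.48 to 0.22 for other numbers. With a replicate block 24 members rose and 8 fell from P1 to P14, 24 and 5 from P14 to P56, and 28 and 7 over the whole span. Members under about 1 CPM, such as Hmox1, Gstt2 and Sod3 at P1, rest on few counts, which limits what differences could be detected.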

Other observations

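Of 15 enzymes listed as makers of superoxide or hydrogen peroxide, 14 were tested. From P1 to P56 4 (28.6%) rose and 3 (21.4%) fell (median 0.07), near or below the 30.9% and 31.7% of all genes. From P1 to P14 6 (42.9%) rose and 3 fell, beside 28.4% and 27.5%, and from P14 to P56 4 rose and 5 (35.7%) fell, beside 27.5% and 28.5%. Maob, a monoamine oxidase of the outer mitochondrial membrane, rose from 10.1 ± 0.477 CPM at P1 to 14.3 ± 0.677 on day 14 and 59.9 ± 0.703 at P56 (2.57 ± 0.07 in all, edgeR, adjusted p = 3.54e-09). Xdh, xanthine dehydrogenase, stood at 0.429 ± 0.0477 CPM at P1, 16.2 ± 11.3 on day 14 and 8.75 ± 2.95 at P56. Nox4, an NADPH oxidase, stood at 5.16 ± 0.109, 5.60 ± 3.86 and 1.38 ± 1.02 CPM, and its fall from P14 to P56 (−2.02 ± 0.57, adjusted p = 0.0128) stood at 0.91 after marker adjustment (adjusted p = 0.161). Without P56 replicate 2 that fall was −1.78 (adjusted p = 0.0501). The wide P14 spread of Xdh and Nox4 stands beside marker scores of 2.32 to 3.62 in those libraries. Duox1 and Duox2 stayed under 1 CPM on average at each age.

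Of 11 genes that insert or supply selenium for selenoproteins such as the thioredoxin reductases, 6 (54.5%) rose and 2 (18.2%) fell from P1 to P56 (median 0.28), beside 30.9% and 31.7% of all genes. By P14 3 (27.3%) rose and 2 fell, beside 28.4% and 27.5%, and thereafter 3 rose and 0 fell by edgeR's test, beside 27.5% and 28.5%. Pstk, which primes the selenocysteine transfer RNA, rose by 0.72 ± 0.05 (adjusted p = 1.88e-06) and Scly, which recycles selenium, by 0.64 ± 0.10 (adjusted p = 0.000251), while Sephs1 fell by 0.53 ± 0.06 (adjusted p = 3.84e-05).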
